A study of Mus musculus with 10 samples.

Results

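The neuronal intermediate filament genes were followed in the hippocampus of adult mice with and without the kinase DLK. They are Nefl, Nefm and Nefh, which encode the light, medium and heavy neurofilament chains, Ina, which encodes alpha-internexin, and Prph, which encodes peripherin. Their probes were found by matching the RefSeq transcript accession in the scanner files to each gene, which gave 6 of the 39429 probes on the array. Nefh had 2 probes and each other gene 1. On all 10 arrays the Cy5 signal of each of the 6 was called well above background, and 1 probe per gene entered the fit, so these genes made up 5 of 23574 features tested. The genes were chosen by measured values of these arrays, namely the difference between knockout and wild type. That difference is therefore given below as a description and supports nothing by itself.

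Intermediate filaments are rope-like polymers of the cytoskeleton. In mature neurons the light neurofilament chain forms the core of the filament, while the medium and heavy chains add long, heavily phosphorylated tails that project from it. Neurofilaments fill large myelinated axons and set their calibre. Alpha-internexin is the further neurofilament subunit of central neurons, and it appears early in neuronal development. Peripherin belongs mainly to peripheral neurons and to central neurons with axons in peripheral nerves.

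RNA came from 10 mice, 1 mouse per 2-colour Agilent array. There were 5 mice with wild-type DLK (WT) and 5 with a conditional knockout of DLK (cKO). DLK is dual leucine zipper kinase, the product of Map3k12, and acts above the JNK kinases. All mice, WT included, were kept on tamoxifen diet for 3 weeks. No array came from a mouse without tamoxifen, so the effect of tamoxifen was not tested. On each array 750 ng of Cy5-labelled sample cRNA was set against Stratagene's Universal mouse reference, a pooled RNA labelled with Cy3, with no dye swap. The mice are adult, of unstated sex and exact age. The sources used here do not give the recombinase, the promoter behind it or the exons it removed.

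Over the 10 arrays the median Cy5 signal was 146 to 202 and the median Cy3 signal 131.5 to 141.5 (median pixel intensities, backgrounds of 29 to 31 and 33 to 37). Correlations of log2 ratios between arrays were 0.980 to 0.996. Slide 1 held 4 cKO arrays, slide 2 held 3 WT arrays and cKO replicate 2, and slide 3 held 2 WT arrays, so most of the genotype contrast runs between slides. Map3k12 itself (probe A_55_P2120586) had a log2 ratio of 1.93 ± 0.19 in WT and 0.51 ± 0.24 in cKO (SD, n = 5 each), a difference of −1.41 (SE 0.12; limma, adjusted p = 0.000975; exact permutation test over mice, two-sided p = 0.00794, the smallest that 5 against 5 allows). On cKO replicate 2 the Cy3 signal of this probe was 314, beside 102.5 to 128 on the other arrays. Without that mouse the difference was −1.31. The position of the Map3k12 probe relative to the deleted exons is not known here. A change in the number of cells with the transcript and a change in transcript per cell cannot be told apart in whole tissue. The hippocampal markers Prox1, Wfs1 and Grik4 and the neuronal marker Snap25 were well above background on all 10 arrays. Their cKO means were 1.65, 1.79, 5.82 and 2.20 beside WT means of 1.64, 1.84, 5.83 and 2.13.

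In gene order on the RefSeq table (assembly GRCm38.p6), Nefl and Nefm are direct neighbours, Nefh lies between Thoc5 and Ap1b1, Ina between Nt5c2 and Pcgf6, and Prph between Tuba1c and Troap. Promoter sequences were held for Ina and Prph, 2 of the 5 genes. Both are shown because they were the only ones available. Each line gives the 250 bases before the annotated start, 5′ to 3′ on the plus strand, with capitals at matches to a TATA box (TATAAA) or a GC box (GGGCGG, here in its reverse complement), searched on both strands. The sequences are those of RefSeq, from chr19:47014431-47014680 for Ina and chr15:99054924-99055173 for Prph.
Ina: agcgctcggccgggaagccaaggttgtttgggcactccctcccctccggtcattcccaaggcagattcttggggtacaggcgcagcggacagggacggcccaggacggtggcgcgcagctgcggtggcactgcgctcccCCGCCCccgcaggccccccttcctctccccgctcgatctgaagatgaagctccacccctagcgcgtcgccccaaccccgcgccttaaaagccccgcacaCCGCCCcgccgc
Prph: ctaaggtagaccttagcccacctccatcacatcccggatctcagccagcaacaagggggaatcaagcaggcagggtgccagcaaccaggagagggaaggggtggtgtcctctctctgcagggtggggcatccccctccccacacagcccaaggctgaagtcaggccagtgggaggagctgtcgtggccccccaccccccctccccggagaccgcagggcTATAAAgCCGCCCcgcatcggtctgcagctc
The Ina window held 2 GC boxes, 111 and 12 bases before the start, and no TATA box. In Prph a TATA box lay 31 bases before the start with 1 GC box directly after it, 24 bases before the start. Of all 32851 promoters in the table, 12.4% held TATAAA and 32.7% held GGGCGG in such a window. Neither window held an AP-1 motif (TGANTCA, in 6.75% of promoters) or a CRE motif (TGACGTCA, in 1.55%). The windows were 70.8% and 65.2% G and C, against a median of 52.4% over all promoters. A match is a description of letters and not of a bound site.

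The 3 neurofilament chains and alpha-internexin were all far above the reference pool in WT hippocampus, and peripherin was close to it. The values are log2 ratios of sample over reference, and each is relative to that gene's own signal in the reference, so they give no order of abundance among the genes. Nefl was 101-fold over the reference in WT, rank 35 of 18398 features measured in both channels. The other neuronal filament genes followed with Nefm at 36.4-fold (rank 199), Nefh at 12.7-fold (rank 702) and Ina at 11.99-fold (rank 735). Prph was 1.20-fold over the reference, at rank 7310. These ratios include the dye effect and depend on the background correction: with plain background subtraction the WT log2 ratio was 7.27 in place of 6.66 for Nefl and 6.52 in place of 5.19 for Nefm, whose reference spots are dim.

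Nefl (probe A_51_P339934, NM_010910), the core chain of the filament, had log2 ratios of 6.47, 6.60, 6.67, 6.77 and 6.81 in WT replicates 1 to 5. In cKO replicates 1 to 5 they were 6.99, 6.71, 6.60, 6.94 and 6.90. The groups overlapped: 3 of 5 cKO mice lay above every WT mouse, while cKO replicate 3 lay beside WT replicate 2, among the low WT values. The means were 6.66 ± 0.14 in WT and 6.83 ± 0.16 in cKO (SD, n = 5 each), a difference of 0.16 (SE 0.09, 95% interval −0.03 to 0.36) or 1.12-fold. This interval includes no difference. The sample signal was bright, with Cy5 at 19649.5 to 34465.5 in WT and 17098.5 to 34415 in cKO.

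Nefm (A_51_P145220, NM_008691), the medium chain with a phosphorylated tail, gave 5.19, 5.17, 5.20, 4.997 and 5.38 in the WT replicates in the same order. The cKO replicates gave 5.56, 5.52, 5.26, 5.46 and 5.33. All 5 cKO mice lay above the WT median, and 3 of 5 lay above the highest WT mouse, WT replicate 5. The WT mean was 5.19 ± 0.14 and the cKO mean 5.43 ± 0.13 (SD, n = 5 each), a difference of 0.24 (SE 0.08, interval 0.07 to 0.41) or 1.18-fold. Its Cy3 signal in the reference was 68.5 to 101.3 on backgrounds of 32.75 to 37.85, so the ratio has a dim denominator. Within slide 2, cKO replicate 2 lay 0.40 above the mean of the 3 WT arrays beside it.

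Nefh (A_55_P2053181, NM_010904), the heavy chain that carries the longest tail, showed no overlap between the groups. The WT values were 3.70, 3.66, 3.70, 3.56 and 3.71, and the cKO values were 3.93, 3.85, 3.83, 3.83 and 3.98. Every cKO mouse was above every WT mouse, with the lowest cKO value at 3.83 and the highest WT value at 3.71. The means were 3.67 ± 0.06 in WT and 3.88 ± 0.07 in cKO (SD, n = 5 each), a difference of 0.22 (SE 0.05, interval 0.10 to 0.33) or 1.16-fold. Both channels were bright, with Cy3 at 696 to 933. The spread of Nefh within genotypes was small, 0.064 on the log2 scale, and 8.49% of features had a smaller one. The non-overlap was lost with centring on the array median in place of loess (3 of 5 cKO mice above all WT) and with the Cy5 channel alone (2 of 5).

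The second Nefh probe (A_55_P2099790) was far dimmer, with Cy5 at 430 to 861.5 in WT and 469.5 to 943 in cKO and Cy3 at 68 to 88. It gave 2.02, 2.16, 2.18, 2.29 and 2.56 in WT and 2.83, 2.57, 2.23, 2.63 and 2.42 in cKO. Here the groups overlapped, with 3 of 5 cKO mice above all WT mice. The difference was 0.29 (SE 0.12, interval 0.04 to 0.55), in the same direction as the brighter probe. Across mice the 2 Nefh probes deviated from their genotype means with a correlation of 0.11, so they ranked the mice within a genotype differently.

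Ina (A_55_P2017373, NM_146100), which co-assembles with the neurofilament chains in central axons, had log2 ratios of 3.66, 3.53, 3.53, 3.72 and 3.48 in WT. The cKO replicates were at 3.78, 3.81, 3.83, 3.60 and 3.71. The groups overlapped through WT replicate 4 at the top of WT and cKO replicate 4 at the bottom of cKO, and 3 of 5 cKO mice lay above all WT mice. The means were 3.58 ± 0.10 and 3.75 ± 0.10 (SD, n = 5 each), a difference of 0.16 (SE 0.07, interval 0.02 to 0.30) or 1.12-fold.

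Prph (A_55_P1968895, NM_013639), the filament of peripheral neurons, did not separate the groups at all. The WT replicates were at 0.58, −0.17, 0.07, 0.75 and 0.11 and the cKO replicates at 0.48, 0.77, 0.31, −0.30 and −0.01. The highest and the lowest of the 10 values were both cKO mice. The means were 0.27 ± 0.38 in WT and 0.25 ± 0.42 in cKO (SD, n = 5 each), and the difference was −0.02 (SE 0.21), with an interval from −0.47 to 0.43 or 0.722-fold to 1.35-fold. Its spread within genotypes was 0.40, larger than that of 99.2% of features, although its Cy5 signal of 121.5 to 301 stayed above the local background of 26 to 33. Its sign turned in 8 of 29 alternative analyses.

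**Figure D1:**
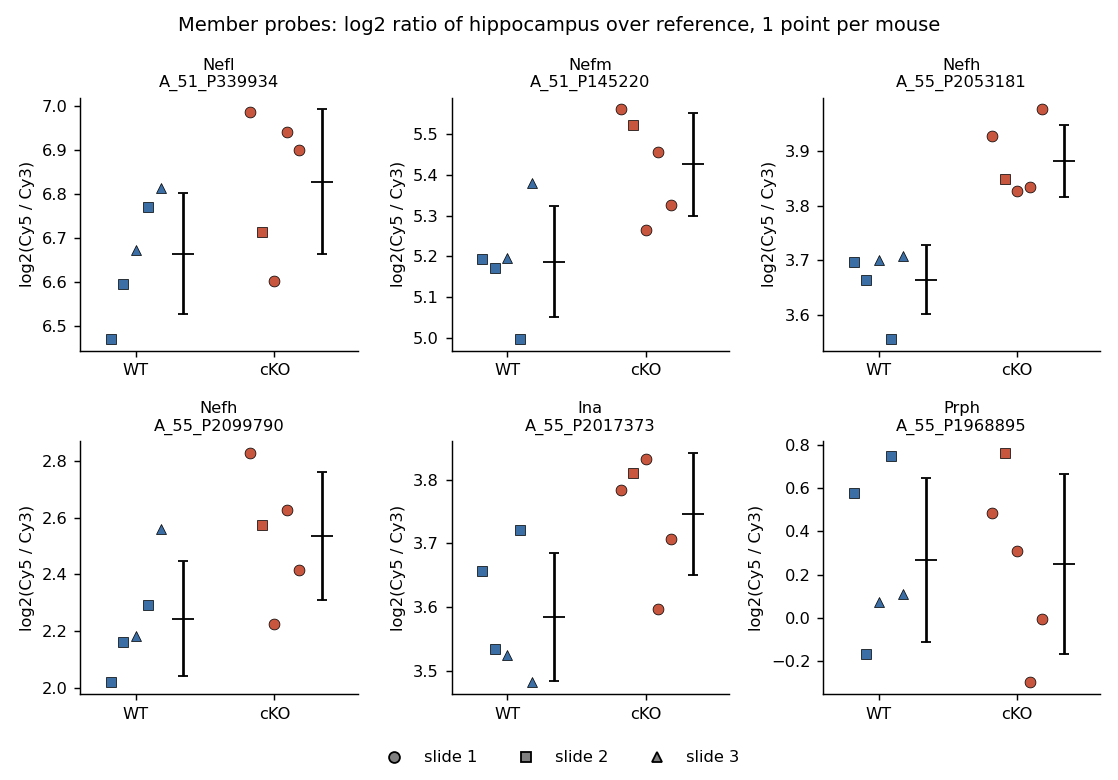
Log2 ratio of hippocampal sample (Cy5) over reference (Cy3) for each of the 6 probes, 1 point per mouse, WT beside cKO, with the symbol showing the slide and the bar the group mean ± SD (n = 5). The groups are apart for the bright Nefh probe, overlap in part for Nefl, Nefm, Ina and the second Nefh probe, and overlap fully for Prph.

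In the fit across all features, 0 of these 5 genes passed an adjusted p of 0.05 (limma, Benjamini-Hochberg over 23574 features; adjusted p = 0.99995 for each), where 1 feature in all, 0.00424%, passed. That feature was Map3k12, and leaving out cKO replicate 4 made it 2 features. In the same limma fit 3 of 5 genes (Nefm, Nefh and Ina) were higher in cKO at an unadjusted p under 0.05, beside 2.83% of all features. That count was 0 of 5 with centring on the array median, 1 of 5 with plain background subtraction or the Cy5 channel alone (Nefh), 1 of 5 with slide as a fixed block or within slide 2 (Nefm), and 2 to 4 of 5 in the other alternatives. All 5 cKO mice lay above all 5 WT mice for 1 of 5 genes, Nefh, beside 0.522% of all features. Since the genes were picked from this contrast, nothing is read from these shares. There were 27 features with a smaller p than Nefh and 484 with a larger positive difference. Of all features 54.8% were higher in cKO, with a median difference of 0.0083. The estimates for Nefl, Nefm, Nefh and Ina were positive in each of 29 alternative analyses and past the adjusted threshold in none. They ranged from 0.07 to 0.40 for Nefl, from 0.15 to 0.58 for Nefm, from 0.13 to 0.31 for Nefh and from 0.07 to 0.27 for Ina, and the lowest adjusted p among them was 0.341, for Nefh with slide as a random block. Not all alternatives could move these estimates. Aquantile scaling, the filters on dim probes and replicate as a block left all of them at their reported values. Slide as a fixed block gave the same estimates as slide 2 alone, which holds 1 cKO mouse.

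**Figure D2:**
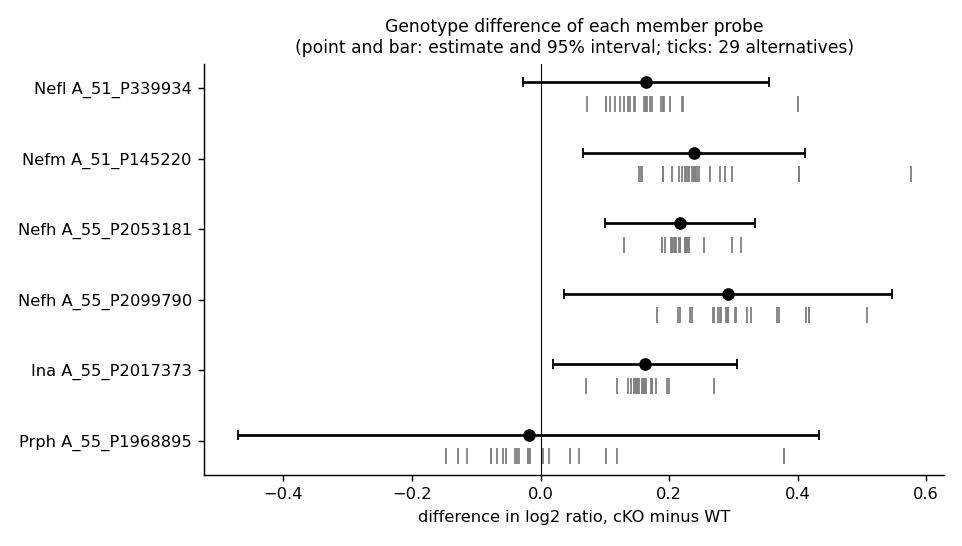
Difference in log2 ratio, cKO minus WT, for each probe, with the 95% interval from limma (black) and the values under 29 alternative analyses (grey ticks). The ticks of Nefl, Nefm, both Nefh probes and Ina lie above 0, and those of Prph lie on both sides of 0.

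On slide 2, the only slide with both genotypes, cKO replicate 2 could be set beside WT replicates 1, 2 and 4. Its value lay above the WT mean by 0.10 for Nefl, 0.40 for Nefm, 0.21 for Nefh, 0.42 for the second Nefh probe, 0.17 for Ina and 0.38 for Prph. With 1 cKO mouse on this slide its own spread is unknown. For Nefl the mouse lay inside the range of the 3 WT mice, 6.47 to 6.77, and for Prph its 0.77 was close to the highest of them, 0.75. The Nefm, Nefh and Ina values lay above the range of those WT mice.

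The Nefm probe was printed as 10 spots on each array, so its spot-to-spot spread can be given. Within an array the SD of log2 Cy5 over its unmarked spots was 0.029 to 0.17 with a median of 0.051, and over all 10 spots it was 0.089 to 0.20. The same 2 spot positions were the dimmest of the 10 on all 10 arrays. The scanner software had marked these 2 as population outliers in 10 of 10 cases on cKO arrays and in 4 of 10 on WT arrays, and marked spots were left out of the mean. Their log2 ratios were below those of the other 8 spots by 0.11 to 0.34 on WT arrays and by 0.23 to 0.32 on cKO arrays. The marking thus differed between genotypes for this probe. With the same 8 spot positions on every array the Nefm difference was 0.25 (SE 0.08), and with the population-outlier spots kept it was 0.23, beside 0.24 as given above. Spots marked as non-uniform stayed out of both, which left fewer than 8 on WT replicate 2 in the first. Both analyses were chosen after the spots had been seen.

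**Figure D3:**
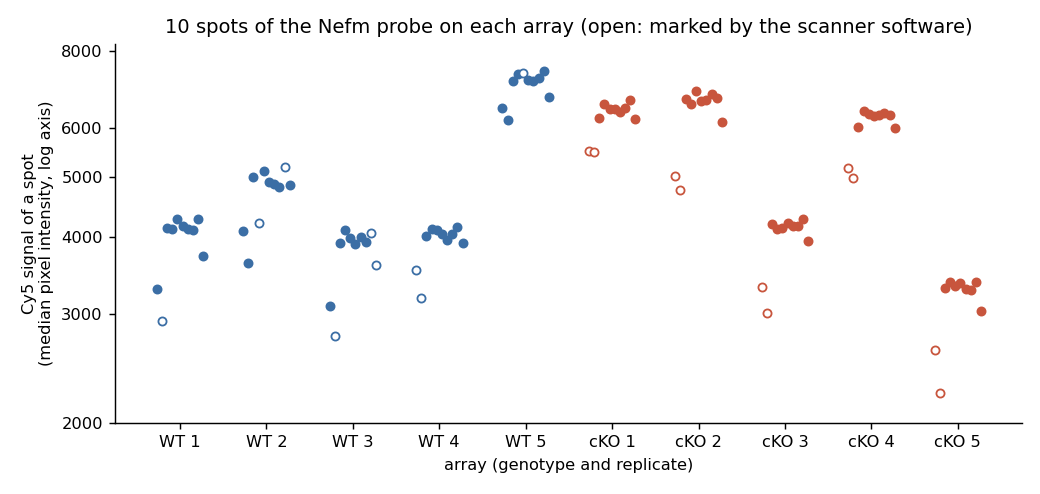
Cy5 signal (median pixel intensity, log axis) of the 10 spots of the Nefm probe on each of the 10 arrays, filled where used and open where marked by the scanner software. On every array 2 spots sit below the others, and these are open on all 5 cKO arrays.

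Within an array the log2 ratio of Nefm to Nefl was −1.48 ± 0.18 in WT and −1.40 ± 0.15 in cKO, a difference of 0.07. The ratio of Nefh to Nefl differed by 0.05, from −3.00 ± 0.17 to −2.95 ± 0.14, and that of Nefh to Nefm by −0.02, from −1.52 ± 0.09 to −1.54 ± 0.14 (SD, n = 5 each). The groups' values overlapped in each case, and the differences in subunit proportions were not tested.

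General neuronal genes had positive estimates too, as did 54.8% of all features. All 10 of 10 pan-neuronal markers (Snap25, Syt1, Rbfox3, Eno2, Tubb3, Stmn2, Thy1, Syp, Elavl4 and Uchl1) had a higher estimate in cKO, none passed the adjusted test, 0 had an unadjusted p under 0.05 in either direction, and their median difference was 0.10. Their mean level was 3.81 to 3.97 in WT mice and 3.91 to 4.05 in cKO mice. Syt1 alone was at 0.17, as large as Nefl and Ina. Centring on the array median in place of loess brought the list median to 0.0049. Slide as a fixed block, which rests on cKO replicate 2 against the 3 WT mice of slide 2, brought it to 0.20. Taken relative to this mean on the same array, the difference was 0.06 for Nefl, 0.14 for Nefm, 0.12 for Nefh, 0.19 for the second Nefh probe, 0.06 for Ina and −0.12 for Prph. On this relative scale 4 of 5 cKO mice lay above all WT mice for Nefm and 4 of 5 for Nefh, against 3 of 5 and 5 of 5 on the plain scale. The part of the neuronal markers in the filament differences was not tested.

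The choroid plexus, oligodendrocyte and thalamus marker lists had positive median differences in all 29 alternatives, with levels that overlapped between the genotypes. The choroid plexus and ependyma list was higher in cKO for 12 of 12 genes, with a median difference of 0.86 and mean levels of 0.65 to 1.71 in WT mice and 1.63 to 2.84 in cKO mice. Its gene Ttr, the transthyretin of choroid plexus, differed by 1.15, and F5 by 1.096 (SE 0.26). The oligodendrocyte list, made of genes of the cells that myelinate central axons, was higher for 10 of 12 genes with a median of 0.31 and mean levels of 3.07 to 3.56 in WT and 3.51 to 3.75 in cKO. In it Mag, a myelin adhesion protein, differed by 0.51 (SE 0.13), while Mbp, myelin basic protein, differed by −0.09. No gene of either list passed the adjusted test, and 8 of 12 and 6 of 12 were higher at an unadjusted p under 0.05. Of all features 2.83% were higher at that p, and 54.8% had a higher estimate. The thalamus list was higher for 9 of 10 tested genes, 2 at an unadjusted p under 0.05 and none past the adjusted test, with a median of 0.14 and levels of 0.61 to 0.80 in WT against 0.79 to 1.11 in cKO. There Zic1, a transcription factor, differed by 0.64 (SE 0.14), and Tcf7l2, the defining thalamic marker, by 0.01. The thalamus lies next to the hippocampus and holds neurons with large myelinated axons. The part of these cells and of neighbouring tissue in the neurofilament differences was not tested.

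Interneuron and projection neuron markers were read alongside, since the parvalbumin cells are rich in neurofilament. The parvalbumin interneuron list was higher in cKO for 8 of 9 tested genes, with a median of 0.12, 0 genes past the adjusted test, and levels of 3.77 to 3.97 in WT and 3.91 to 4.06 in cKO. The median turned to −0.05 with the Cy5 channel alone. Gad2, an enzyme of GABA synthesis, was at 0.27 (SE 0.09) and Pvalb itself at 0.19 (SE 0.10). Syt2, a presynaptic calcium sensor, was at 0.25 (SE 0.07) but was well above background on only 5 of 10 arrays, the least that the filter allows. The hippocampal principal neuron list was higher for 7 of 11 genes, with a median of 0.06. That median was above 0 in 24 of 29 alternatives, and −0.02 under centring on the array median. Levels of this list were 2.92 to 3.29 in WT and 2.95 to 3.30 in cKO. Of 8 genes of peripheral nerve and dorsal root ganglion, where peripherin is most abundant, Tlx3 and Scn10a were not well above background, and 3 of the other 6 were higher with a median of −0.02, and 0.05 with the Cy5 channel alone. The striatum list was higher for 2 of 8 genes, with a median of −0.21. WT replicate 1 stood apart there, at a mean level of 3.22 beside 1.95 to 2.24 in the other WT mice and 2.06 to 2.33 in cKO mice, and without it the median was 0.05. The astrocyte list was higher for 6 of 8 genes (Gfap at 0.23, SE 0.16), with a median of 0.08 that fell below 0 in 6 of 29 alternatives. It was −0.25 with slide as a fixed block, which rests on cKO replicate 2 as its only cKO mouse. The meninges list was higher for 5 of 8 genes with a median of 0.07, and −0.05 with the same slide block and its single cKO mouse. No gene of these lists passed the adjusted test in either direction. At an unadjusted p under 0.05, 2 parvalbumin, 1 peripheral (Pmp22, at 0.31, SE 0.11) and 3 meningeal genes (among them Slc13a4 at 0.75, SE 0.22, and Col1a1 at 0.24, SE 0.07) were higher, and none in the principal neuron, striatum and astrocyte lists. Of all features 2.83% were higher at that p, and 54.8% had a higher estimate.

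Genes that work with neurofilaments showed small positive medians and no called gene. Of 20 genes for linkers, motors and turnover, 19 were tested and 16 were higher, with a median of 0.07 that turned to −0.03 under centring on the array median. The smallest unadjusted p values belonged to Mtmr2, a lipid phosphatase, at 0.24 (SE 0.07), and Dync1i1, a dynein intermediate chain, at 0.19 (SE 0.07). Among 20 kinase and phosphatase genes that act on the tails of the medium and heavy chains, 16 were higher with a median of 0.05, −0.04 under centring on the array median. Mapk10, which encodes the neuronal kinase JNK3 of the pathway below DLK, was at 0.16 (SE 0.06) and Camk2b at 0.14 (SE 0.06). In the 13 genes of the node of Ranvier and the axon initial segment, where the axon is excitable, 12 were higher with a median of 0.11, which was 0.04 under centring on the array median and 0.27 when the background was fitted on all spots. That list was led by the potassium channel gene Kcna1 at 0.31 (SE 0.10), and Ank3, the ankyrin that organises the initial segment, was at −0.02. At an unadjusted p under 0.05, 2, 3 and 3 genes of these lists were higher and 0 lower. Of all features 2.83% were higher at that p, and 54.8% had a higher estimate.

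Intermediate filament genes of other cell types were read alongside. The neuronal ones were picked by their difference, so nothing is read from a comparison of the medians. Some single genes of the other cell types had differences as large. Of 15 such genes 11 were higher, beside 54.8% of all features, with a median of 0.04. That median came to −0.00053 under centring on the array median. Only 1 gene was higher at an unadjusted p under 0.05, beside 2.83% of all features. That gene was Bfsp1, a beaded filament gene of the lens, with log2 ratios of 1.29 ± 0.10 in WT and 1.53 ± 0.11 in cKO (SD, n = 5 each) and a difference of 0.24 (SE 0.07). Its partner Bfsp2, named after its value was seen, was at 0.25 (SE 0.13), Gfap, the astrocyte filament, at 0.23 (SE 0.16) and Krt18, a keratin of simple epithelia, at 0.18 (SE 0.09). Vim, the vimentin of glia and mesenchyme, was at −4.64 ± 0.16 in WT and −4.59 ± 0.11 in cKO, and the neural progenitor filament gene Nes at −1.85 ± 0.05 and −1.89 ± 0.10 (SD, n = 5 each).

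**Figure D4:**
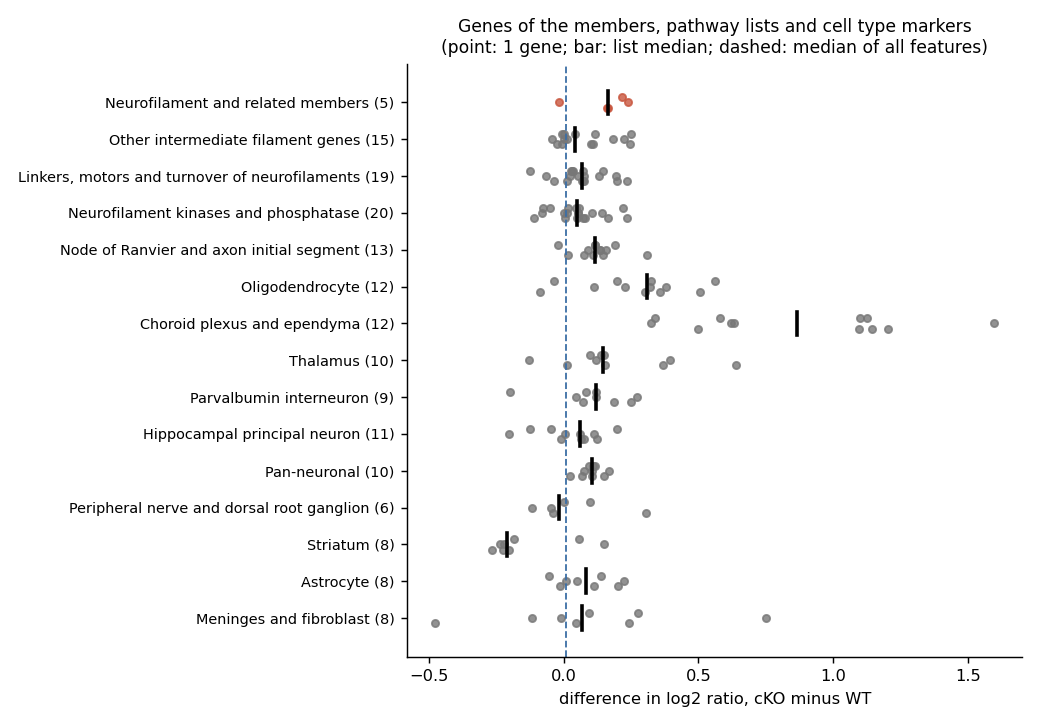
Difference in log2 ratio, cKO minus WT, of each gene (point) for the 5 neuronal filament genes, 4 pathway lists and 10 marker lists, with the list median (bar) and the median of all features (dashed line). All medians but those of the striatum (−0.21) and peripheral nerve (−0.02) lists lie right of the dashed line. The filament genes, picked by this difference, are at 0.16, and the choroid plexus list is farthest at 0.86. Under centring on the array median the medians of the linker, kinase, other filament, hippocampal principal neuron and astrocyte lists turn below 0. The filament genes are then at 0.07 for Nefl, 0.16 for Nefm, 0.13 for Nefh, 0.07 for Ina and −0.05 for Prph.

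Across mice of a genotype the measured correlations among the 5 genes differed in sign and size. With genotype means removed, Pearson correlations over the 10 arrays were 0.32 for Nefl and Nefm, 0.17 for Nefl and Nefh, and 0.44 for Nefm and Nefh (Spearman rho 0.49, 0.38 and 0.47). Their adjusted p was 0.627, 0.812 and 0.567 (exact permutation within genotypes, two-sided, Benjamini-Hochberg over the 15 probe pairs). The value for Nefl and Nefm ran from −0.42 to 0.94 over 20 alternatives (above 0 in 18). That for Nefl and Nefh ran from −0.03 to 0.87 (above 0 in 19), and that for Nefm and Nefh from 0.10 to 0.92 (above 0 in all 20). Ina went against all 3 chains, at −0.44 with Nefl, −0.47 with Nefm and −0.41 with Nefh, none past an adjusted p of 0.05. These signs turned in some of the same alternatives, to above 0 in 2, 4 and 3 of 20. The ranges were −0.74 to 0.76, −0.59 to 0.81 and −0.77 to 0.71. The highest correlation was that of Ina and Prph, with r = 0.88 (exact permutation p = 0.00354, adjusted 0.0531) and rho = 0.77 (p = 0.0197, adjusted 0.148). It did not pass the adjusted threshold, was 0.79 without the 2 mice farthest from the median of Ina, and lay between 0.65 and 0.92 over 20 alternatives. WT replicate 4 was high for both genes and cKO replicate 4 low for both. The second Nefh probe had r = 0.83 with Nefl (adjusted p = 0.0536) and r = 0.70 with Nefm (adjusted p = 0.198), neither past the adjusted threshold.

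**Figure D5:**
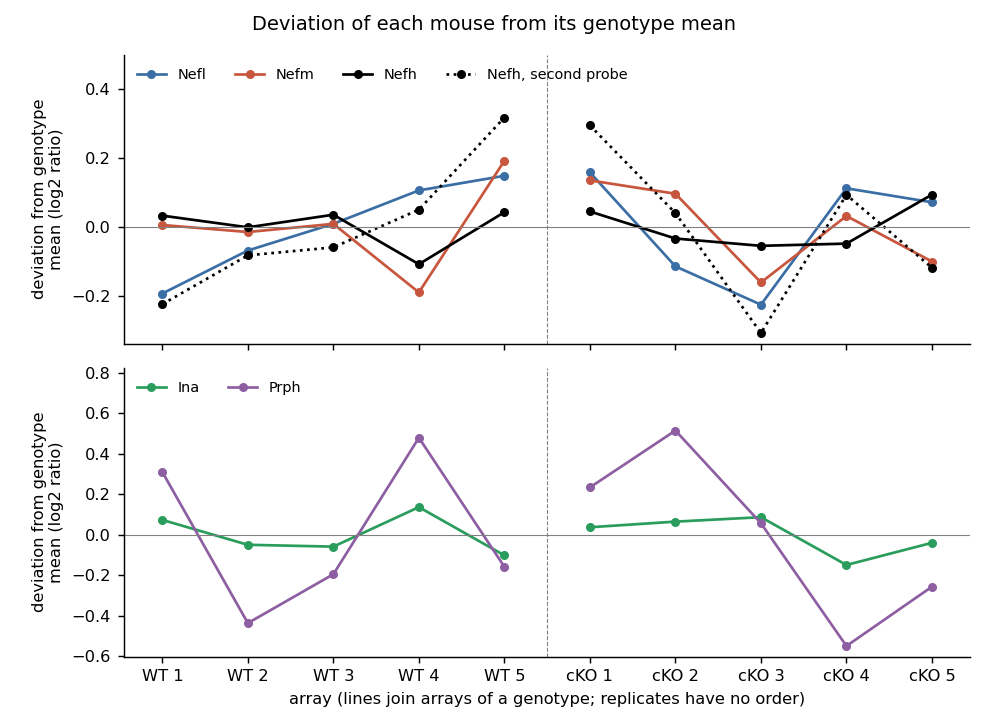
Deviation of each mouse from its genotype mean in log2 ratio, with the neurofilament chains above and Ina and Prph below, WT arrays left of the dashed line and cKO arrays right of it. On each array Ina and Prph lie on the same side of their genotype means, by amounts that differ, and the 3 chains do so only on some arrays. The correlation of Ina and Prph did not pass the adjusted threshold.

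The genes whose deviations were most like those of each filament gene were taken from 16172 features with a symbol, as the highest Pearson correlations over the 10 arrays. For Nefl they were Lrrn1 (r = 0.95), Asb7 (0.94), Rexo1 (0.93), Tdpoz2 (0.93) and Syt1 (0.92), of which Syt1, the synaptic vesicle calcium sensor, is also in the pan-neuronal list. Those of Nefm included Scamp4, Senp6 and Igf2r, each at 0.97, and Dgcr2 at 0.96. Nefh had lower ones, Oxct2b (0.92), Trappc10 (0.91), Vasp (0.91), Fsd1l (0.90) and Adgrb2 (0.89). Ankrd22 (0.97), Klf6 (0.96), Zar1l (0.96), Adam25 (0.95) and Tmsb10 (0.95) were most like Ina. For Prph they were Nxph3, Tsks, Mybpc1, Camk2d and Vill, all at 0.97. No filament gene was among the 5 nearest of another: Prph was at rank 50 for Ina and Ina at rank 89 for Prph, while Nefm was at rank 4099 for Nefl. Each value is the top of 16172 over 10 arrays, which share their slides and their normalisation, and was not tested.

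Set beside the mean level of each list with genotype means removed, Nefm had higher correlations with the axonal gene lists than Nefl or Nefh. Its r over the 10 arrays was 0.96 with the linker and motor list, 0.90 with the node list, 0.89 with the kinase list, 0.77 with the pan-neuronal list and −0.82 with the astrocyte list. For Nefl the same values were 0.40, 0.61, 0.15, 0.43 and −0.26, and for Nefh 0.42, 0.57, 0.37, 0.08 and 0.11. Ina stood at −0.85 with the hippocampal principal neuron list, and Prph at −0.63 with that list and 0.62 with the thalamus list. With the oligodendrocyte list the values were −0.38 for Nefl, −0.41 for Nefm and 0.08 for Nefh, and with the choroid plexus list −0.26, −0.22 and 0.32. These correlations are descriptions over 10 arrays that share their slides and normalisation.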

How the data were processed

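The scanner files hold spot intensity values, median pixel intensities of spot and local background in both channels, which the authors obtained with Agilent Feature Extraction 11.0.1.1, per the file headers. The same deposited files hold processed intensities and a log10 ratio (Cy5 to Cy3), used as an alternative. The authors' deposited value table holds log2 values, and the submitters' processing notes name limma without settings. Each of its columns correlated with the log2 ratios computed here at 0.99997 or more, with column medians of 0.0120 to 0.0204, so it holds log2 sample-to-reference ratios without gene centring. It served as an alternative.

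Each array had 44397 spots, 1377 of them controls. Spots marked as non-uniform were removed before the background fit and population outliers before averaging. Backgrounds were corrected with normexp (limma 3.58.1, R 4.3.3, offset 50, which pulls ratios of dim spots towards 0), and ratios were normalised by loess within arrays with controls at weight 0. The plan named mean signals; medians were used, as the files hold them. Probes were kept with Cy5 well above background on at least 5 arrays (28682), and the brightest probe stood for a gene (23574 features). Differences are cKO minus WT by lmFit and eBayes over 10 arrays, with Benjamini-Hochberg adjustment. The fit was tested on simulated data. The number of arrays limits the precision.

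The members, the lists and the tests were chosen with earlier results of these data known. Genes were named by a rule: every member probe, per list at most the 2 genes with the smallest unadjusted p in each direction, defining markers, and the 5 features most like each member. Some genes that the rule names are not reported here. The alternatives were other background corrections, other normalisations, filters and probe rules, slide and replicate as blocks, array weights and leaving out each mouse, 29 in all. Promoter sequences and gene order came from RefSeq tables of assembly GRCm38.p6. The array headers name NCBI37, so no coordinates of probes are given.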

Additional observations from a re-analysis of the deposited data

How the results depend on the processing

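The count of features past the adjusted threshold was 1 as reported, 0 with plain background subtraction, the Cy5 channel alone, all spots in the background fit or slide 2 alone, 2 with the mean of a gene's kept probes, and 1 to 2 when each mouse was left out in turn. It was 0 for the 5 filament genes under all 29 alternatives. The Map3k12 difference no longer passed with plain background subtraction (−1.79, limma adjusted p = 0.0582), the Cy5 channel alone (−1.18, 0.0974) or all spots in the background fit (−1.26, 0.971). It was −1.81 within slide 2 alone and ran from −1.46 to −1.31 when each mouse was left out. The only cKO mouse of slide 2, cKO replicate 2, had a Cy3 signal of 314 for this probe, beside 102.5 to 128 on the other arrays. Its log2 ratio of 0.11 was the lowest, and without this mouse the difference was −1.31. The Prph difference, −0.02 as reported, turned positive with the Cy5 channel alone (0.0036), slide as a fixed block (0.38), slide 2 alone (0.38) and array weights (0.014), and ran from −0.15 to 0.12 when each mouse was left out. The causes were not tested. When no spot was left out of that fit, the members' ratios shifted on WT replicate 2, by −1.18 for Nefl, −1.68 for Nefm, −0.41 for Nefh, −0.54 for Ina and 0.10 for Prph, and by less than 0.02 on the other 9 arrays. Replicate numbers did not pair the mice: deviations of same-numbered WT and cKO mice correlated at −0.56 to 0.16. With replicate as a block Map3k12 was at −1.41 (adjusted p = 0.0161), 1 feature passed, and Nefh was at 0.22. Aquantile scaling leaves log ratios as they are by construction. Of the other results under these alternatives, 761 stayed within a set limit and 83 moved past it. The limit was an SD within genotypes for levels, ratios within an array and medians. For correlations it was a fixed change, and for the count of kept probes passing the threshold a fixed ratio. Depth on arrays is signal over background: Nefm and the second Nefh probe had dim reference spots, and with plain background subtraction their differences were 0.15 in place of 0.24 and 0.21 in place of 0.29.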
